A study of Mus musculus with 4 samples.

Results

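The CDK inhibitor genes are the 7 genes whose proteins bind cyclin-dependent kinases (CDKs) and hold the cell cycle back. They fall into the Cip/Kip family, with Cdkn1a (p21), Cdkn1b (p27) and Cdkn1c (p57), and the Ink4 family, with Cdkn2a (p16, and Arf from another reading frame), Cdkn2b (p15), Cdkn2c (p18) and Cdkn2d (the Ink4 protein p19). The members were all probe sets annotated to exactly 1 gene with one of these symbols. All 7 genes, of 18193 named on the array, were found, with 5 probe sets for the 3 Cip/Kip genes and 4 for the 4 Ink4 genes, or 9 of 45037 probe sets. A probe set is the group of short probes on the array that reads one transcript.

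The messenger RNA came from sorted epidermal cells of FVB mouse pups at postnatal day 4, 24 h after doxycycline was injected. The induced pups were K14-rtTA/TRE-miR-203/K14-H2BGFP, so that the doxycycline-dependent activator rtTA, made from the keratin 14 promoter of basal keratinocytes, drove a miR-203 transgene. The control pups were their TRE-miR-203/K14-H2BGFP littermates, labelled WT and uninduced, which carried the same miR-203 transgene and the same nuclear H2BGFP reporter but no rtTA. Each group had 2 arrays, labelled biological replicates, and rtTA and miR-203 cannot be told apart as the source of a difference. Neither the gate of the sort nor the number of pups behind each array is given in the sources used here. The question is which messenger RNAs respond early to miR-203, a microRNA of the differentiating epidermis.

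Cip/Kip proteins bind cyclin and CDK together and block the CDK2 complexes that start DNA replication. Ink4 proteins bind CDK4 and CDK6 alone and keep the D-type cyclins from them, so that the pocket protein Rb stays in its growth-restraining state. In the epidermis both families are known for the step at which basal keratinocytes leave the cell cycle and differentiate. Much of the control of p27 lies in the stability of its protein, which the array does not measure. Skp2, which marks p27 for destruction, is taken from prior knowledge of the study to be one of its miR-203 targets. Cdkn2a and Cdkn2b are next to each other among the protein-coding genes that RefSeq places on chromosome 4 of GRCm38.

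The microRNA that was switched on is shown here as RefSeq lists its mature form, because the induction is what sets the groups apart. The seed, bases 2 to 8, is in capitals, and the mature sequence lies at chr12:112130927-112130948 on the plus strand of GRCm38.p6. The labels do not say which arm of the hairpin was followed, and the arm shown is the one usually called miR-203.
mmu-miR-203-3p: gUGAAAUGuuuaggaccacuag

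The values are log2 RMA values, on which a difference of 1 is a 2-fold change. Array medians lay between 4.74 and 4.79 and all values between 2.09 and 14.6. Probe sets whose mean over the 4 arrays reached the 40th percentile, 4.17, were tested, which kept 27022 of them and 8 of the 9 CDK inhibitor probe sets. Induced replicate 1 stood apart in sex-linked transcripts, with the Y-linked gene Eif2s3y at 9.38 against 2.72 in induced replicate 2 and 2.82 and 2.52 in the controls, and with Xist at 5.86 against 11.2, 10.6 and 10.8. For the tested CDK inhibitor probe sets and some medians over lists of genes, results are therefore also given without induced replicate 1. Single genes outside both families are given with all arrays only. The defining markers of keratinocytes were bright, with the 6 basal and the 6 suprabasal markers all kept by the filter. Of 6 fibroblast markers 3 were kept (Dcn, with a mean of 8.06, Col3a1 at 5.30 and Col1a2 at 5.27) and Col1a1, Pdgfra and Lum were below the filter level. Of 4 endothelial markers Kdr was kept, at 5.35, and Pecam1, Cdh5 and Tek were below it. In such bulk samples fewer cells of a type and less RNA per cell cannot be told apart.

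None of the 8 tested CDK inhibitor probe sets differed between induced and control arrays at an adjusted p under 0.05 in limma. The members' adjusted p values ran from 0.363 to 0.958, and the background was 0% of the 27022 probe sets. With a trended and robust variance prior limma called 126 of those probe sets, again with no member among them. At an unadjusted p under 0.05 there was 1 member of 8, the probe set of Cdkn2d (lower), where 10.1% of all tested probe sets passed, 5.41% higher and 4.69% lower. The groups did not overlap for 3 of the 8, which were 2 higher (both probe sets of Cdkn1b) and 1 lower (Cdkn2d), where 39.1% of all tested probe sets did not overlap, 20.9% higher and 18.2% lower. The members' counts are thus near the background and are no result about the families.

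**Figure D1:**
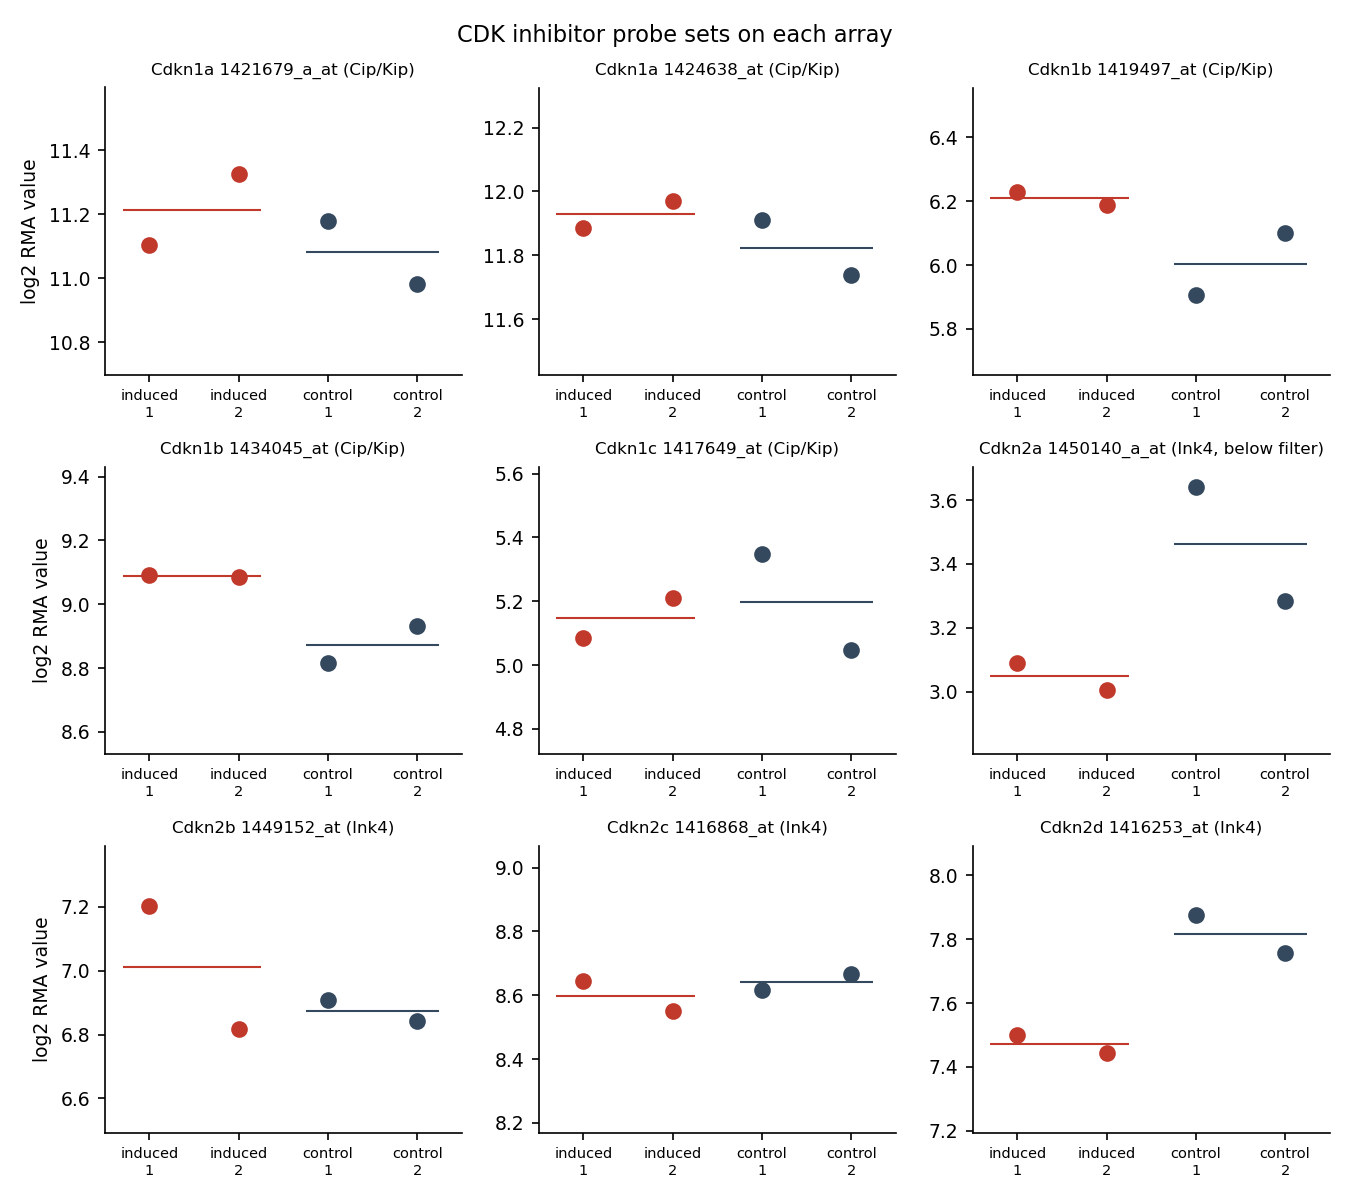
Log2 RMA value (vertical axis) of the 9 CDK inhibitor probe sets on each array, with induced arrays in red, control arrays in dark blue and a line at each group's mean (n = 2 each). Every panel has the same height in log2 units, so that steps compare between panels. Both Cdkn1b probe sets have both induced arrays above both controls, and the Cdkn2d and Cdkn2a probe sets have both induced arrays below them.

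Among the Cip/Kip genes, Cdkn1b was the one whose groups stood apart. Its protein p27 restrains CDK2 in cells that leave the cycle. The brighter probe set, 1434045_at, had log2 values of 9.09 and 9.09 in the induced arrays, against 8.81 and 8.93 in the controls. Both induced arrays were thus above both controls, with a gap of 0.15 between the nearest arrays. The group means were 9.09 ± 0.0050 in induced and 8.87 ± 0.083 in control arrays (SD, n = 2 each). The difference was 0.22 ± 0.10 (SE), or 1.16-fold with a 95% interval of 0.980 to 1.38, and its adjusted p in limma was 0.550.

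The other Cdkn1b probe set, 1419497_at, is dimmer and gave a difference of the same sign and size. Its values were 6.23 and 6.19 in the induced arrays, against 5.91 and 6.10 in the controls, so that the groups were again apart, by 0.09. The difference was 0.21 ± 0.11 (SE; limma adjusted p = 0.605). The 2 probe sets read the same RNA samples and are not separate replicates. With each array left out in turn the difference ran from 0.16 to 0.27 for the brighter and from 0.11 to 0.30 for the dimmer probe set. For the dimmer one it was 0.11 without control replicate 1, the array with its lowest value. Without induced replicate 1 the differences were 0.21 for the brighter and 0.19 for the dimmer probe set.

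Cdkn1a encodes p21, the inhibitor that p53 switches on after DNA damage and that also accompanies keratinocyte differentiation. Its transcript was far above the filter level in every array. Probe set 1424638_at read 11.88 and 11.97 in the induced arrays, against 11.91 and 11.74 in the controls. Probe set 1421679_a_at read 11.10 and 11.32 in the induced arrays, against 11.18 and 10.98 in the controls. In both, induced replicate 2 was the highest and control replicate 2 the lowest array, and the groups overlapped.

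The differences of the Cdkn1a probe sets were 0.10 ± 0.11 and 0.13 ± 0.13 (SE), with adjusted p values in limma of 0.832 and 0.812. Their 95% intervals for the fold were 0.892 to 1.30 and 0.881 to 1.36. The size rested on the arrays of replicate 2. Without induced replicate 2 the differences were 0.06 (1424638_at) and 0.02 (1421679_a_at), and without control replicate 2 they were 0.02 and 0.03. Without induced replicate 1 they were 0.15 and 0.24.

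Cdkn1c encodes p57, an imprinted inhibitor best known from embryonic growth. Probe set 1417649_at had values of 5.08 and 5.21 in the induced arrays, against 5.35 and 5.05 in the controls. Both induced arrays lay between the controls. The difference was -0.05 ± 0.13 (SE; limma adjusted p = 0.958), with a 95% interval of -0.38 to 0.28 on the log2 scale. Its sign turned without control replicate 1 (0.10) and without induced replicate 1 (0.01).

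Among the Ink4 genes, Cdkn2d had the largest difference of the 8 tested probe sets, in the direction opposite to Cdkn1b. Its protein binds CDK4 and CDK6, and its transcript is known to vary over the cell cycle. Probe set 1416253_at had log2 values of 7.50 and 7.44 in the induced arrays, against 7.88 and 7.76 in the controls. Both induced arrays were below both controls, with a gap of 0.26, and each group's own arrays lay within a smaller range. The means were 7.47 ± 0.039 in induced and 7.82 ± 0.083 in control arrays (SD, n = 2 each).

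The Cdkn2d difference was -0.35 ± 0.10 (SE), or 1.27-fold lower in induced arrays with a 95% interval of 1.07 to 1.51. Its unadjusted p was 0.0147 and its adjusted p 0.363 in limma, so that it did not pass over the whole table. A larger absolute test statistic was reached by 4.04% of all tested probe sets. With each array left out in turn the difference ran from -0.40 to -0.29, and it was -0.37 without induced replicate 1. Cdkn2d has a single probe set here, so the step has no other probe set to be set beside.

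Cdkn2c encodes p18, another inhibitor of CDK4 and CDK6. Probe set 1416868_at had values of 8.64 and 8.55 in the induced arrays, against 8.62 and 8.67 in the controls. All 4 arrays lay within 0.12 of each other, the narrowest range among the members, and the groups overlapped. The difference was -0.04 ± 0.10 (SE; limma adjusted p = 0.946), and the 95% interval of the fold ran from 0.820 to 1.15. It was 0.00 without induced replicate 2 and -0.09 without induced replicate 1.

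Cdkn2b encodes p15, an inhibitor that TGF-beta induces in keratinocytes. Probe set 1449152_at had values of 7.20 and 6.82 in the induced arrays, against 6.91 and 6.84 in the controls. Induced replicate 1 was the highest and induced replicate 2 the lowest of the 4 arrays, so that the controls lay between them. The difference was 0.14 ± 0.15 (SE; limma adjusted p = 0.843), and 1 array decided its sign. Without induced replicate 1 it was -0.06, and without induced replicate 2 it was 0.33.

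Cdkn2a, the neighbour of Cdkn2b, encodes p16 and Arf, which share sequence, and its single probe set 1450140_a_at was not used to tell them apart. Its values were 3.09 and 3.01 in the induced arrays, against 3.64 and 3.28 in the controls, all below the filter level of 4.17. Both induced arrays were below both controls, with a difference of -0.41 between the means. At this level no fold is given, and the probe set was not among those tested. With no filter its adjusted p in limma was 0.565.

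**Figure D2:**
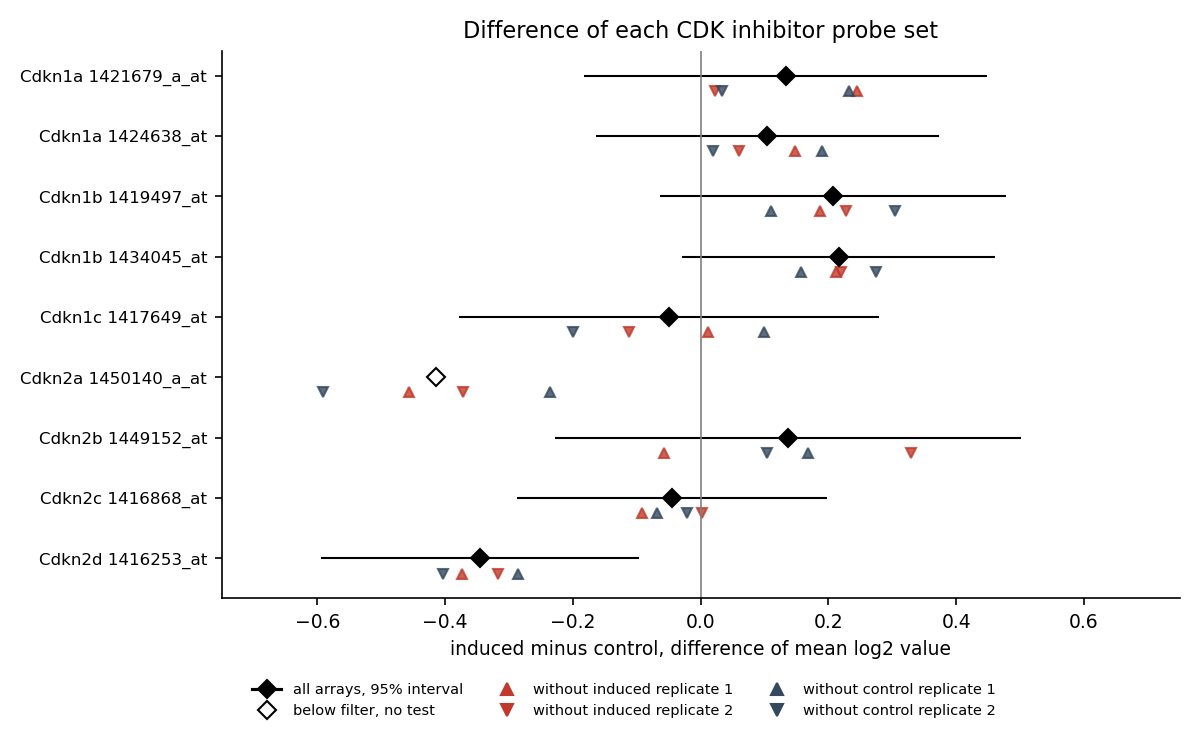
Induced minus control difference of the mean log2 value (horizontal axis) for each CDK inhibitor probe set. Filled diamonds with lines are the differences and 95% intervals with all arrays (n = 2 each), the open diamond is the Cdkn2a probe set, which is below the filter level, and triangles are the differences with 1 array left out. The interval of Cdkn2d (-0.59 to -0.10) is the one that leaves out 0, and the triangles of Cdkn1c, Cdkn2b and Cdkn2c lie on both sides of 0.

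The intervals bound the size of any difference. The highest upper bound of any tested member was 1.42-fold, for Cdkn2b, and the lowest lower bound was 0.663-fold, for Cdkn2d. For Cdkn1a the brighter probe set's interval ended at 1.30-fold and for Cdkn1b at 1.38-fold. These are unadjusted intervals that take the spread largely from all probe sets together, since each group holds 2 arrays.

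By family, the Cip/Kip genes had a median difference of 0.10 over 3 genes, each read by its brightest kept probe set, and the Ink4 genes of -0.04 over the 3 kept genes. The median over all 13489 genes was -0.00. In the Cip/Kip family 2 genes had a higher mean in induced arrays and 1 a lower mean. In the Ink4 family 1 kept gene had a higher and 2 a lower mean. With Cdkn2a counted in despite its low level the Ink4 median was -0.20. With each array left out in turn the Cip/Kip median ran from 0.02 to 0.16 and the Ink4 median from -0.09 to 0.00. For comparison, the arrays of one group differed in their family medians with a pooled SD of 0.090 for Cip/Kip and 0.079 for Ink4. Both families thus held members of either sign, and the Ink4 median was smaller than this spread.

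**Figure D3:**
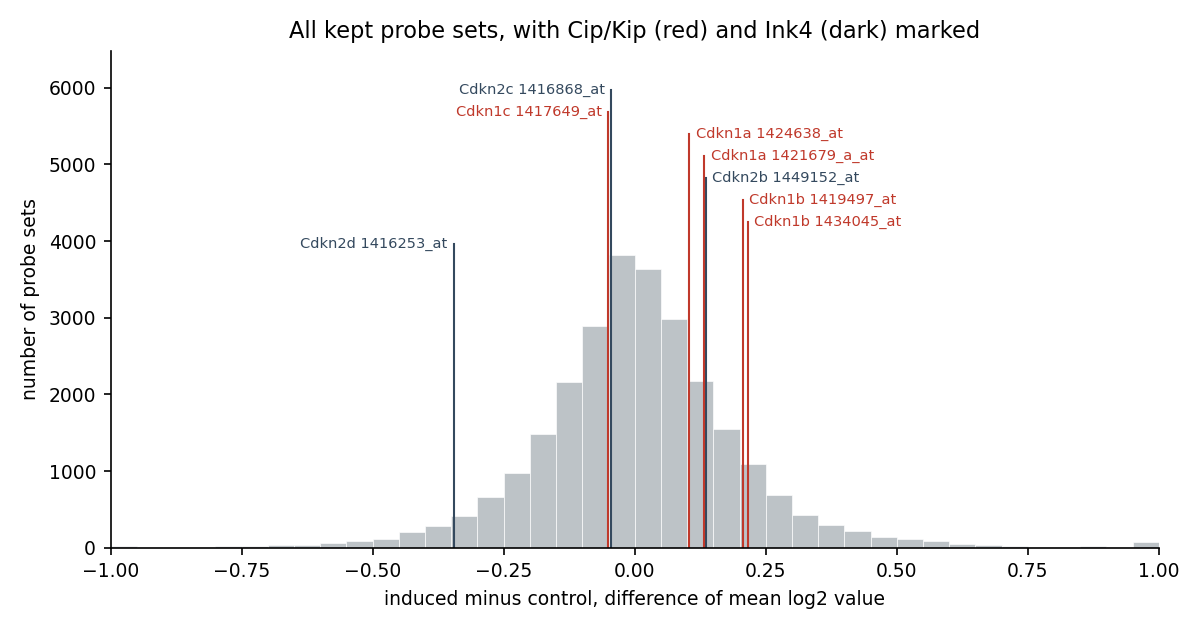
Number of tested probe sets (vertical axis) by induced minus control difference in mean log2 value (horizontal axis, end bins holding all values beyond them), over 27022 probe sets. Lines mark the 8 tested CDK inhibitor probe sets, Cip/Kip in red and Ink4 in dark blue. Of these, Cdkn2d at -0.35 is the farthest from the centre, followed by the Cdkn1b probe sets at 0.22 and 0.21.

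Cdkn2d was the tested member with the widest range over the 4 arrays, 0.43. The genes with the most similar pattern, by the root mean square distance between log2 values centred on each probe set's mean, were Mtrf1l (0.018), Fam210a (0.022) and Tctn2 (0.023), out of 13488 other genes. Mtrf1l read 6.35 and 6.26 in the induced arrays, against 6.72 and 6.58 in the controls. The likeness rests on 4 arrays that were normalized together and is a description only.

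The kinases that the inhibitors bind had lower values in induced arrays. In the brightest kept probe set, all 4 CDK genes had both induced arrays below both controls, where 19.3% of all genes did, 20.1% had them above and 39.4% were apart in either direction. Their median difference was -0.20, with 0 past the adjusted threshold in limma and 1 (Cdk1) at an unadjusted p under 0.05, where 9.62% of all genes passed. Cdk4, the kinase that Ink4 proteins bind, read 9.83 and 9.88 in the induced arrays, against 10.05 and 10.05 in the controls, a difference of -0.19 ± 0.095 (SE; limma adjusted p = 0.573). For Cdk6, the other Ink4 target, the values were 8.02 and 8.09 in induced and 8.23 and 8.30 in control arrays, a difference of -0.21 ± 0.098 (SE; adjusted p = 0.546). Dimmer probe sets of both genes also had lower means, but the groups overlapped in 1 of the 2 further ones of Cdk4 (1422439_a_at, a difference of -0.16) and in both of Cdk6 (-0.13 and -0.08). In the other further one of Cdk4, 1422440_at (a difference of -0.13), the nearest arrays of the groups were only 0.00064 apart. Cdk2, the target of p21 and p27, differed by -0.19 ± 0.13 (adjusted p = 0.684), with the nearest arrays of the groups only 0.032 apart. Cdk1, the mitotic kinase, differed by -0.33 ± 0.13 (adjusted p = 0.486). Without induced replicate 2 the median of the 4 was -0.29, and without induced replicate 1 it was -0.17.

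Of 8 listed cyclins 7 were analysed here, since Ccnb1 had no probe set annotated to it alone. Of the 7, 6 had lower means (background 50.4% of all genes), 1 a higher mean, and 2 had induced arrays below both controls. None passed the adjusted threshold in limma, and 1 (Ccnd2) had an unadjusted p under 0.05. The median of the cyclins was -0.19, and 0.03 without induced replicate 1, so that this array decided its sign. Ccnd2, a D-type cyclin, differed by -0.45 ± 0.17 (SE; limma adjusted p = 0.477), and Ccne1, a partner of CDK2, by -0.20 ± 0.13. Ccnd3 differed by -0.16 ± 0.12, Ccna2 by -0.19 ± 0.16 and Ccnd1 by -0.19 ± 0.17, each with overlapping groups. Of the pocket proteins, which CDKs phosphorylate, Rbl1 (p107) differed by -0.53 ± 0.19 (adjusted p = 0.434), Rbl2 (p130) by -0.07 ± 0.094 and Rb1 by -0.0038 ± 0.11.

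Genes of the machinery that marks Cip/Kip proteins for destruction, with related turnover factors, gave 15 kept members of 15. Their median difference was 0.05, with 9 higher and 6 lower means, and 5 separated in each direction (background 20.1% of all genes higher and 19.3% lower). In limma 0 passed the adjusted threshold and 3, all lower, had an unadjusted p under 0.05 (background 9.62%). The subunits of the SCF ligase for p27 did not share a sign. By the brightest probe set, Skp1 (0.05), a linker subunit, and Rbx1 (0.20), the ring subunit, had both induced arrays above both controls, while Skp2, Cks1b and the scaffold Cul1 (-0.17) had them below. The other kept probe set of Skp1 had the opposite sign. Skp2, its recognition subunit, read 6.32 and 6.66 in the induced arrays, against 7.13 and 6.98 in the controls, a difference of -0.57 ± 0.14 (SE; limma adjusted p = 0.308). Of the 5 further kept probe sets of Skp2, 4 differed by -0.74, -0.58, -0.38 and -0.33, with groups apart for 3 of them, and 1425072_at differed by 0.0015. Cks1b, the cofactor that Skp2 needs to recognise p27, read 10.34 and 10.46 in induced and 10.73 and 10.57 in control arrays, a difference of -0.24 ± 0.11 (adjusted p = 0.546).

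Cdkn1b messenger RNA was thus higher, and Skp2 and Cks1b lower, in both induced arrays. Rbx1 of the same ligase (0.20 ± 0.12, SE, at a low mean of 4.98), and Ubac1 (0.15 ± 0.10) of another p27 ligase, were higher as Cdkn1b was. Rnf123, of the ligase that holds Ubac1, differed by 0.03 ± 0.10 (SE) with overlapping groups. The step of Skp1 in its brightest probe set, 0.05 ± 0.095, was smaller than its SE. None of these differences passed the threshold, and p27 protein was not measured. Dtl, the recognition subunit of the ligase for p21, differed by -0.80 ± 0.22 (SE; limma adjusted p = 0.347) in its brightest probe set and by 0.0075 in its other kept one. Pcna, to which p21 binds and which that ligase requires, differed by -0.37 ± 0.15 (adjusted p = 0.486). Fbxw7, which recognises cyclin E, differed by 0.23 ± 0.098 (adjusted p = 0.508).

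**Figure D4:**
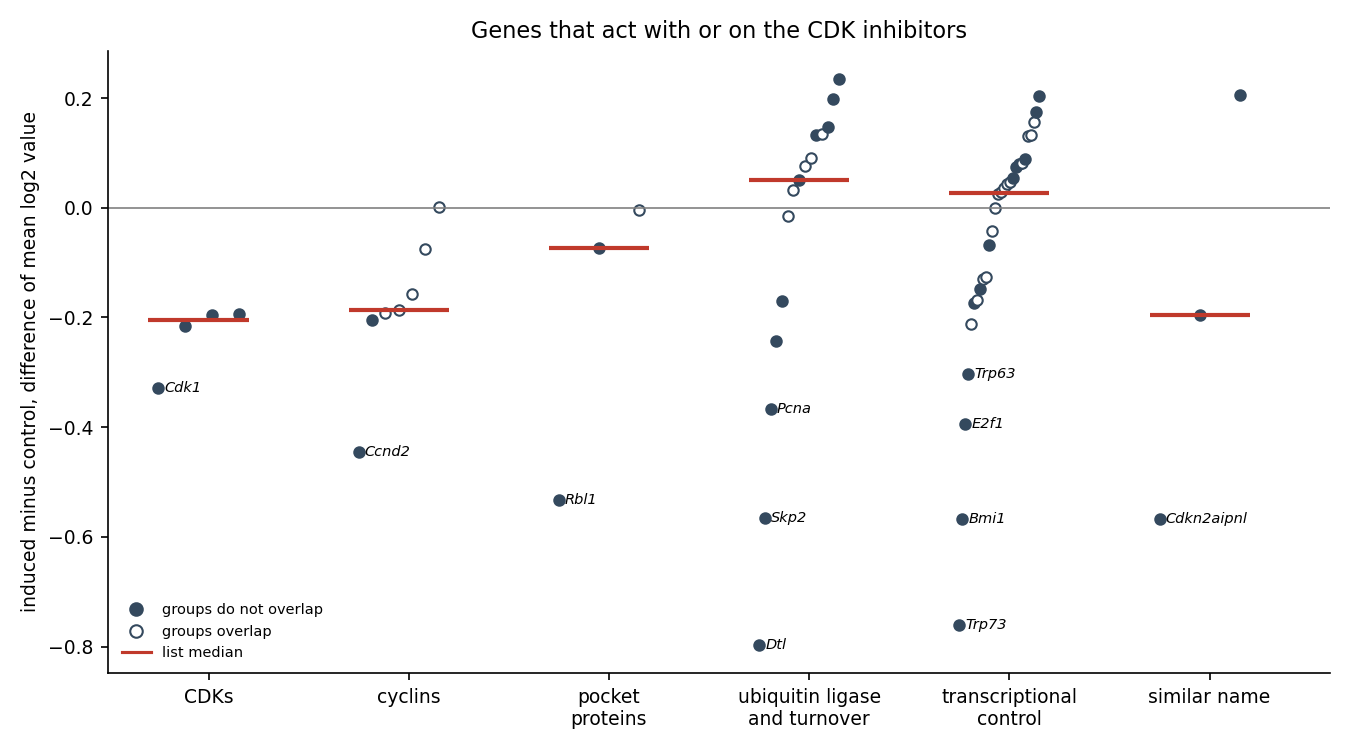
Induced minus control difference of the mean log2 value (vertical axis) for the kept genes of 6 lists that act with or on the CDK inhibitors or share their name, 60 genes in all (n = 2 arrays each). Filled points have groups that do not overlap, open points have groups that do, and red lines are list medians. All 4 CDK genes, each by its brightest probe set, lie below 0, and the lowest labelled genes are Dtl (-0.80), Trp73 (-0.76), Bmi1 and Cdkn2aipnl (-0.57 each) and Skp2 (-0.57).

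Of genes known to control transcription of the inhibitors, 28 of 29 listed were analysed here, since Trp53 had no probe set annotated to it alone. They had a median difference of 0.03, 16 higher and 12 lower means, with 6 separated higher and 7 separated lower, beside the same backgrounds of 20.1% and 19.3%. The sign of the median turned without induced replicate 1 (-0.00043) and without induced replicate 2 (-0.0034). By their brightest probe sets 0 passed the adjusted threshold in limma and 4, all lower, had an unadjusted p under 0.05 (background 9.62%). Bmi1, the Polycomb protein that represses Cdkn2a, read 8.28 and 8.36 in the induced arrays, against 9.02 and 8.76 in the controls, a difference of -0.57 ± 0.12 (SE; limma adjusted p = 0.261). Its other probe set, 1448733_at, differed by -0.51. The Cdkn2a reading beside it was below the filter level in both groups.

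Trp73, a p53 family member that can activate the p21 gene, differed by -0.76 ± 0.13 (SE; limma adjusted p = 0.205) in probe set 1452325_at and by -0.12 in its other kept probe set. Trp63, which encodes the basal factor p63, differed by -0.30 ± 0.094 (adjusted p = 0.385) in its brightest probe set, while 2 dimmer Trp63 probe sets went the other way. Of these, 1459581_at differed by 0.46 ± 0.12 (SE; limma adjusted p = 0.308), with both induced arrays above both controls. The other, 1452027_a_at, differed by 0.10 with overlapping groups. E2f1, a transcription factor of replication genes that Rb restrains, differed by -0.39 ± 0.12 (adjusted p = 0.394), with 1 other probe set at 0.04. The 60 genes in the 6 lists were counted by their brightest kept probe sets. Of them, 0 passed the adjusted threshold and 11, all lower in induced arrays, had an unadjusted p under 0.05. That is 18.3% against a background of 9.62% of all genes. Trp63 is among the 11, although its probe set 1459581_at was higher, at an unadjusted p of 0.0082 in limma. The lists were chosen with earlier results known, so nothing is read from that excess.

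Genes with a similar name that belong to neither family also gave values. Cdkn3, a phosphatase that acts on CDKs, differed by -0.20 ± 0.11 (SE; limma adjusted p = 0.609). Cdkn2aipnl differed by -0.57 ± 0.14 (adjusted p = 0.303), with -0.51 in its other probe set, and Cdkn2aip, whose protein binds Arf, by 0.20 ± 0.10 (adjusted p = 0.577).

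Markers of the cell types in the skin also differed between the arrays. Over all genes, 20.1% were separated higher and 19.3% lower, the background for the counts of single markers here. Of 10 hair follicle markers 9 had a higher mean in induced arrays, 8 of them separated. The log2 of their summed linear signal was 14.65 and 14.91 in induced and 13.91 and 14.21 in control arrays. Of 6 basal keratinocyte markers 5 were separated lower, with summed levels of 15.18 and 15.13 in induced and 15.34 and 15.35 in control arrays. The suprabasal sums were 16.475 and 16.410 in induced and 16.487 and 16.487 in control arrays, with 4 of 6 markers separated lower. The gaps of those 4 were small, from 0.0030 (Krt10) to 0.037 (Krt1). Lor, at a mean of 14.25 near the highest value of 14.6, ranged over 0.0031 across the arrays. The red blood cell sums, over 3 markers of which 2 were kept, were 6.65 and 6.51 in induced and 6.07 and 6.16 in control arrays. Slc4a1, the anion exchanger of red cells, differed by 0.71 ± 0.11 (SE; limma adjusted p = 0.176). The other kept marker, Alas2, differed by 0.14 ± 0.095 at a mean of 4.26. Hba-a1 was below the filter level, and its groups overlapped. The endothelial sums were 6.16 and 5.92 in induced and 6.19 and 6.36 in control arrays. Kdr, the endothelial marker kept by the filter, overlapped, at 5.37 and 5.06 in induced and 5.33 and 5.63 in control arrays. The endothelial sums were therefore apart only with markers below the filter level counted in. The summed levels of these 5 lists thus did not overlap between the groups, as for Cdkn1b and Cdkn2d, and their part in those differences was not tested. No background share was computed for sums over lists. Among single genes 39.4% were apart in either direction, so the count of lists is no result in itself. The immune markers had summed levels of 12.23 and 11.83 in induced and 12.25 and 11.83 in control arrays, which parts the arrays by replicate number rather than by group. The fibroblast sums overlapped, at 8.10 and 8.92 in induced and 8.65 and 8.59 in control arrays. The melanocyte sums were 11.80 and 12.41 in induced and 11.96 and 12.02 in control arrays, with the highest in induced replicate 2, as for Cdkn1a, and their part in its values was not tested.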

How the data were processed

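Each sample had its own biotin-labelled Affymetrix array, according to the labels' protocols. The authors deposited log2 values per probe set, made with RMA per the submitters' processing notes, which give no version. RMA corrects background, quantile normalizes the arrays and summarises probes, so shifts in the RNA content of whole cells are lost. Of 45101 rows, 64 control probe sets were left out, and 0 columns belonged to other samples. A single gene was annotated for 34945 probe sets, several for 932 and none for 9160. Gene symbols were brought up to date through RefSeq (GRCm38).

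Induced arrays were set against controls with limma 3.58.1 (R 4.3.3; lmFit, then eBayes; two-sided; no block). Tested were the 27022 probe sets whose mean reached the 40th percentile, with Benjamini-Hochberg adjustment over all of them. Residual degrees of freedom were 2, prior ones 3.82, and the median replicate SD was 0.109. The procedure was tested on simulated data with planted changes larger than any member difference. That test does not show whether steps of the members' size would be found. The brightest kept probe set stood for a gene. From each list up to 4 genes were described by absolute test statistic, with others fixed by name. Members, lists and tests were chosen with earlier results of these data known. The labels number both groups' replicates without tying a number to a litter. Alternatives covered the filter, the normalization, the variance prior, the threshold, averaged probe sets per gene, a replicate block and each array left out. The number of arrays limits the precision.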

Additional observations from a re-analysis of the deposited data

How the results depend on the processing

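Every alternative kept 0 of the CDK inhibitor probe sets at an adjusted p under 0.05 in limma, and 1 (Cdkn2d) had an unadjusted p under 0.05. Over the whole table, where 0 were called, 126 probe sets were called with a trended and robust variance prior, 6 without induced replicate 2, 0 without each of the other arrays, and 2728 had an unadjusted p under 0.05. The Ink4 median was -0.20 with no filter, which brings in Cdkn2a, and ran from -0.09 to 0.00 with an array left out, while the Cip/Kip median ran from 0.02 to 0.16. The sign turned for Cdkn1c without control replicate 1 (0.10) and without induced replicate 1 (0.01), for Cdkn2b without induced replicate 1 (-0.057) and for Cdkn2c without induced replicate 2 (0.0026). With an array left out the difference ran from -0.20 to 0.10 for Cdkn1c, from -0.057 to 0.33 for Cdkn2b and from -0.092 to 0.0026 for Cdkn2c. The Cdkn1a, Cdkn1b, Cdkn2a and Cdkn2d probe sets kept their sign in all 10 alternatives. The filter, the variance prior and the replicate block cannot change the difference itself. Where the groups do not overlap, as for Cdkn1b, Cdkn2a and Cdkn2d, leaving out an array cannot turn the sign either. For these genes only the other normalizations could have done so. With all arrays, adjusted p values in limma ran from 0.246 to 0.581 for Cdkn2d. For the brighter Cdkn1b probe set they ran from 0.436 to 0.716. With an array left out, its lone partner is assumed to vary like the other group.

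With the replicate number as a replicate block 0 probe sets were called in all and 0 among the members, and the Cdkn2d adjusted p was 0.581. Same-numbered arrays deviated from their group means with a correlation of -0.10 over 27022 probe sets, so the number was not taken to pair them. With the numbers crossed in the block, an alternative chosen after seeing the data, 0 probe sets were called in all and 0 among the members.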
